A study of Homo sapiens with 6 samples.

Results

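Red cell membrane and blood group genes were followed in TF-1 cells with and without added PRL-3. The group of 37 genes comprises the spectrin-actin skeleton under the red cell membrane with its anchors, the proteins that carry blood group antigens, 2 carbonic anhydrases and a few genes of late erythroid cells. Every probe set annotated to one of these symbols was taken, and 34 of the 37 genes were found. Of these, 33 had 1 probe set of their own and are among the 18377 genes tested. TRIM58 was measured by 3 probe sets that are also annotated to the olfactory receptor gene OR2W3, so it is reported as shared. The glycophorin genes GYPB, GYPC and GYPE were not analysed here.

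TF-1 is a human leukaemia line with erythroid features that needs a cytokine to grow. All 6 samples were TF-1 cells grown in RPMI with 10% fetal bovine serum and 5 ng/ml of human interleukin-3. Control cells (pEGFP, arrays 1 to 3) had received a control vector, and PRL-3 cells (hPRL3, arrays 4 to 6) had received human PRL-3, a tyrosine phosphatase encoded by PTP4A3; the series asked about its part in leukaemia. The labels do not say whether a transfected line was 1 clone or a pool, which promoter drove PRL-3, or whether replicates were grown apart. The p-values therefore rest on array-to-array spread alone, and that spread may be technical.

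In a red cell, spectrin, a long rod made of alpha and beta chains, forms a net with short actin filaments. Ankyrin and the EPB42 protein tie the net to the anion exchanger band 3, and the EPB41 protein, adducin, dematin and tropomodulin hold the actin junctions. Many blood group antigens lie on proteins of these same membrane complexes, such as the Rh proteins, or on transporters, adhesion molecules and complement regulators. In erythroid cells several of these genes are known targets of the transcription factors GATA1 and KLF1, and many of them rise as the cells mature.

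Of the 33 genes with their own probe set, 7 fell and 3 rose with PRL-3 (limma, adjusted p under 0.05 over all 18377 genes). The falls were KEL, SLC14A1, ERMAP, AHSP, ADD2, SLC4A1 and RHAG, by 0.31 to 0.86 on the log2 scale, and the rises were CA2, TMOD1 and CD55, by 0.46 to 0.90. None of the 33 reached a 2-fold difference. Among all genes 3.11% were lower and 4.58% higher at this threshold, 7.69% in all, against 30.3% of the 33. The median difference was -0.11 over the 33 genes and -0.02 over all genes, and 23 of the 33 differences (69.7%) lay below 0, against 54.9% of all genes. The 3 PRL-3 arrays all lay below the 3 control arrays for 10 of the 33 and all above for 3, against 12.2% and 12.1% of all genes (24.3% in either direction). An unadjusted p under 0.05 was found in 11 of the 33 and in 20.2% of all genes (limma). The genes were grouped with earlier results of these arrays known, so these shares describe the set and are no independent evidence of its direction.

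**Figure D1:**
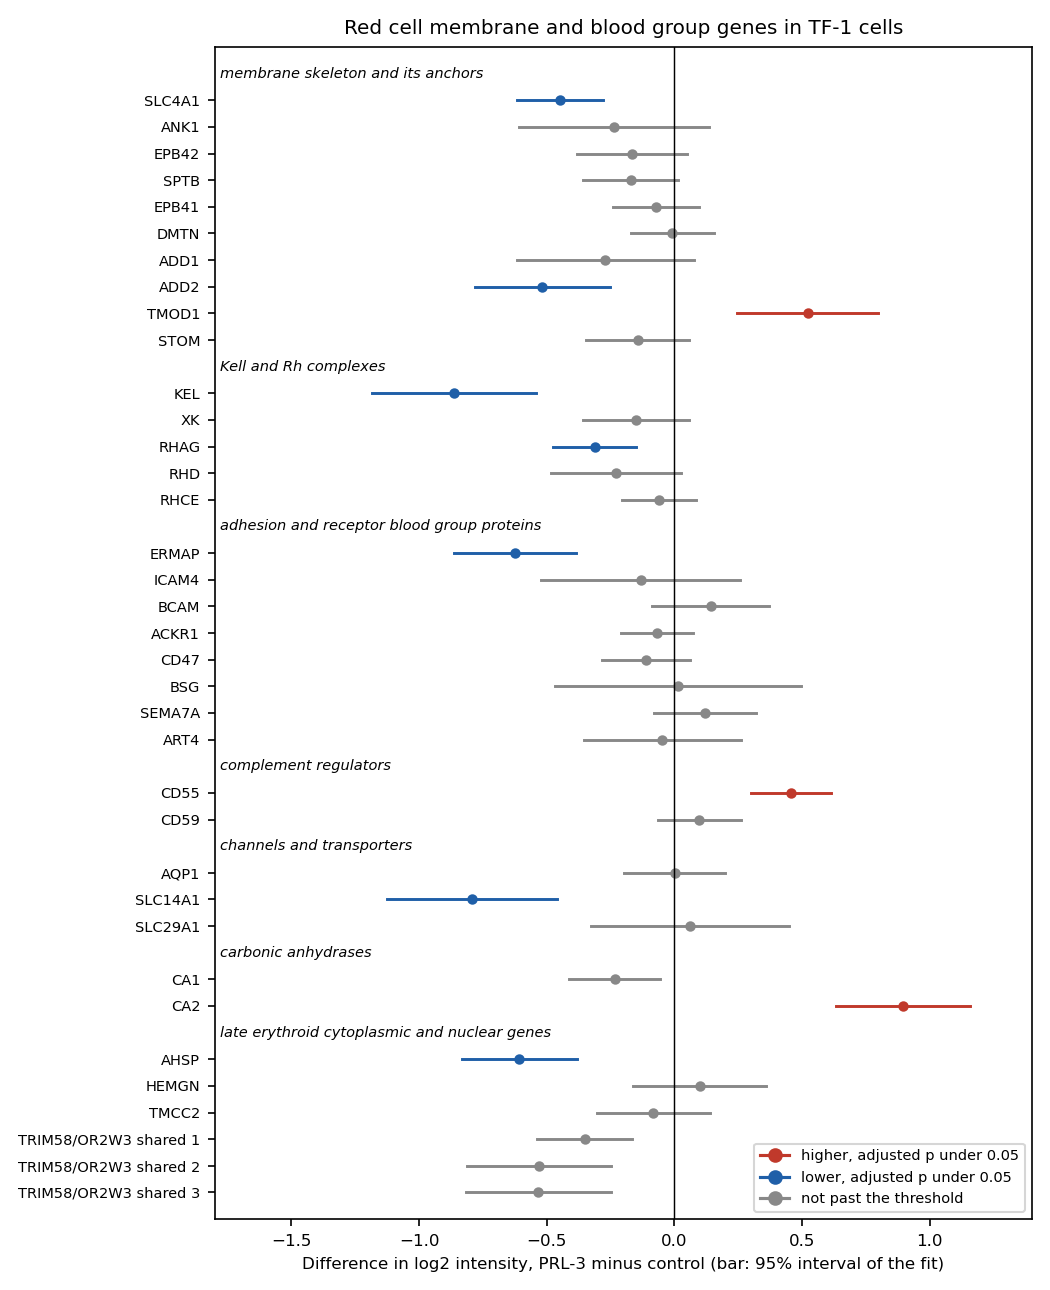
Difference in log2 intensity, PRL-3 minus control, for the 33 genes and the 3 shared TRIM58 probe sets, grouped by role. Points are the fitted differences, bars their 95% intervals, and colour marks a limma adjusted p under 0.05: KEL (-0.86) lies farthest to the left and CA2 (0.90) farthest to the right.

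The labels could be checked on the target gene. PTP4A3 read 7.92, 8.03 and 7.97 in control and 10.81, 10.93 and 10.79 in PRL-3 arrays (log2 intensity), a difference of 2.87 ± 0.0717 (SE, limma adjusted p = 2.24e-06). Median intensity per array ran from 89.8 to 92.9. Markers of TF-1, namely CD34, CSF2RA, CSF2RB, IL3RA, EPOR, GATA2, TFRC and KIT, were measured at log2 levels of 6.66 to 12.73 in control arrays. KIT (1.01 log2, 2.02-fold) and CSF2RA (0.27) rose and TFRC, the transferrin receptor, fell (-0.52, 1.44-fold); KIT and TFRC passed without any single array, and CSF2RA in none of those fits (limma adjusted p = 0.0695 to 0.149). Of the 8 markers 7 had an unadjusted p under 0.05 in limma, with 4 differences above 0 and 4 below. Of all genes 20.2% had such a p and 7.69% passed after adjustment, the shares to set beside the marker counts in this paragraph. CD34 (-0.44) and CSF2RB (-0.57) read lower and GATA2 (0.47) and IL3RA (0.49) higher, without passing the threshold. The summed intensity of the 8 was 9376 to 10315 in control and 7429 to 7955 in PRL-3 arrays. Without TFRC the sums overlapped, at 2553 to 3428 and 2654 to 3347, but a sum does not show rises and falls that offset each other. Of 8 megakaryocyte markers GP1BA fell (-0.53, limma adjusted p = 0.00591) and 0 rose (4 at an unadjusted p under 0.05). Their sums were 1167 to 1331 and 976 to 1104, and without GP1BA they overlapped. Of 11 granulocyte and monocyte markers ITGAM fell (-0.54, limma adjusted p = 0.024) and 0 rose (1 at an unadjusted p under 0.05). Their sums were 1716 to 1855 and 1522 to 1704, and without ITGAM they overlapped. ITGAM lost its call without control 1 (adjusted p = 0.0639), control 2 (0.11), PRL-3 4 (0.105) or PRL-3 6 (0.0995). In 10 lymphocyte markers 0 passed limma's threshold (0 at an unadjusted p under 0.05), with sums of 650 to 705 and 684 to 694. In 11 fibroblast, epithelial and endothelial markers 0 passed (2 at an unadjusted p under 0.05), with sums of 2293 to 2496 and 2025 to 2207; without PECAM1 the sums overlapped, at 901 to 990.2 and 903 to 966. The genes left out of these sums were chosen after their values were seen. The table gives no detection call, so no marker could be called absent. The part of these shifts in the results on red cell genes was not tested.

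The upstream sequences of several of these genes are shown first. They set genes that fell, with and without the letters searched for here, beside one that did not pass and one that rose. Each window is the 250 bases before a RefSeq gene start (GRCh38.p14), printed 5′ to 3′ on the gene's strand. Capitals mark matches, on either strand, to the GATA forms AGATAA and TGATAA and to the CACCC box CCACACCC. They also mark CTG and GATAA with 8 bases between them, a pair that can overlap the GATA forms. CTG is only part of an E-box, and a full E-box was not searched for. Other forms that GATA1 or KLF1 can bind were not searched for either, so a window without a match may hold one. KEL fell and holds both GATA forms (chr7:142962364-142962613, minus strand). RHAG fell and holds TGATAA in reverse (chr6:49636840-49637089, minus strand). ERMAP fell and holds TGATAA and CCACACCC, both in reverse, in the second of its windows (chr1:42825311-42825560, plus strand). EPB42 did not pass the test and holds AGATAA at 2 places, the second within a CTG and GATAA pair (chr15:43221019-43221268, minus strand). SLC14A1 fell and holds none of these letters in the window shown (chr18:45723931-45724180, plus strand) or in its other window, and ADD2, which also fell, holds none in its 2 windows. CD55 rose and holds none (chr1:207321428-207321677, plus strand). Windows of SLC4A1, AHSP and CA2 were not used here.
KEL: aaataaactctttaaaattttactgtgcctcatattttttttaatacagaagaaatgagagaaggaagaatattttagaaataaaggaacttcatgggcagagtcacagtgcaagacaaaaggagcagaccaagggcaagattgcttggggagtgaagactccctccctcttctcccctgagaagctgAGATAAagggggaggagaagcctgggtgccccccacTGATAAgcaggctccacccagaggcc
RHAG: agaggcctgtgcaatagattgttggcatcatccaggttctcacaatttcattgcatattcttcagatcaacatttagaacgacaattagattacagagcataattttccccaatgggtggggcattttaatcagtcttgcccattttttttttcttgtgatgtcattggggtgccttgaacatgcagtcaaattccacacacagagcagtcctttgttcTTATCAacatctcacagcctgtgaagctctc
ERMAP: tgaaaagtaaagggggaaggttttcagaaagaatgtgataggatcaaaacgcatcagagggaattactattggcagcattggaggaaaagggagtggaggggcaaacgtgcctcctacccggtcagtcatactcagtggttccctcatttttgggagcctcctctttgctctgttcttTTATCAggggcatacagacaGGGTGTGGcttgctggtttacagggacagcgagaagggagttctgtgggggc
EPB42: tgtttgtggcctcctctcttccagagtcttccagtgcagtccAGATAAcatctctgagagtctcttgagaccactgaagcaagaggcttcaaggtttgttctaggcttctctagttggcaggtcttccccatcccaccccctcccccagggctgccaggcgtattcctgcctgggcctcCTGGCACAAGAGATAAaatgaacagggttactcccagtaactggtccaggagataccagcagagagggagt
SLC14A1: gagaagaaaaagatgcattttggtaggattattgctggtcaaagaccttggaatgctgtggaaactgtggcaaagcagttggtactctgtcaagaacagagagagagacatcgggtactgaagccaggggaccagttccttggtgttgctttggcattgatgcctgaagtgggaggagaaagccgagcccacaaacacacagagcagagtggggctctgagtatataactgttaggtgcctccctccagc
CD55: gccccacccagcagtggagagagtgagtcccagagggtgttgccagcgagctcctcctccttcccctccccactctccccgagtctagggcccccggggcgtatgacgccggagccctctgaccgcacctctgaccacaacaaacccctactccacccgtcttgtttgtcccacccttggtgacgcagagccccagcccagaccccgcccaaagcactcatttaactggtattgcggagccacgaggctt

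The RefSeq promoter table held 51 windows for 29 of the 37 genes. A GATA form stood in 14 of these 51 windows (27.5%), against 14.6% of all 35116 windows of the same length. By gene, 12 of the 29 had it in at least 1 window (41.4%), against 17.5% of 27305 genes, and genes with more windows have more chances of a match. Without GYPB, GYPC and GYPE, which were not analysed on the arrays, 10 of 26 genes had it (38.5%). The CACCC letters stood in 2 member windows, those of ERMAP and TRIM58, and in 2.97% of all windows. The CTG and GATAA pair stood in 3, those of HEMGN, ART4 and EPB42, and in 0.496% of all. Among measured genes with windows a GATA form stood in 3 of the 5 that fell, 0 of the 2 that rose and 7 of the 18 that did not pass. A match is a string of letters, not a shown site, and a RefSeq start need not be the one used in erythroid cells. KLF1 itself differed by -0.21 (95% interval -0.42 to 0.01) and GATA1 by -0.08 (-0.51 to 0.35). Of 14 erythroid regulators 0 passed in limma, and 10 differences lay below 0 and 4 above, against 54.9% of all genes below 0. The 2 at an unadjusted p under 0.05 in limma, against 20.2% of all genes, were NFE2 and TAL1. NFE2 differed by -0.37 (-0.60 to -0.14, limma adjusted p = 0.0655) and TAL1 by -0.28 (-0.53 to -0.03, limma adjusted p = 0.187).

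The membrane skeleton and its anchors held 10 measured genes, of which 2 fell, 1 rose and 7 did not pass. SLC4A1 encodes band 3, the anion exchanger that carries the Diego antigens and anchors the skeleton. Its control arrays read 6.50, 6.38 and 6.38 and its PRL-3 arrays 5.97, 5.89 and 6.05 (log2 intensity). All 3 PRL-3 arrays lay below every control array, and SLC4A1 was 1.36-fold lower with PRL-3 (-0.45 ± 0.0734 log2, SE, limma adjusted p = 0.0094). The call was lost at adjusted p = 0.0502 without PRL-3 4. SLC4A1 was dim, at percentile 31.9 of all genes by mean level, and AHSP (35.5), ADD2 (46.6) and SLC14A1 (49.7), which also fell, lay below the median level too. With no detection call, how much of such signals was background was not tested.

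ADD2, beta adducin, which caps actin filaments and recruits spectrin to them, read 7.03, 7.08 and 6.73 in control and 6.26, 6.49 and 6.54 in PRL-3 arrays. The groups did not overlap, and ADD2 was 1.43-fold lower with PRL-3 (-0.52 ± 0.115 log2, limma adjusted p = 0.0325). TMOD1, tropomodulin, which caps the other end of the actin filaments, read 9.81, 9.62 and 9.37 in control and 10.07, 10.27 and 10.02 in PRL-3 arrays. TMOD1 was thus higher in every PRL-3 array, by 1.44-fold (0.52 ± 0.12, adjusted p = 0.0375, limma). Each call was lost in 5 of the 6 fits with 1 array left out. ADD2 passed without control 3 (adjusted p = 0.0111) but not without control 1 (0.0939), control 2 (0.141), PRL-3 4 (0.124), PRL-3 5 (0.053) or PRL-3 6 (0.0699). TMOD1 passed without control 1 (adjusted p = 0.0227) but not without control 2 (0.132), control 3 (0.0531), PRL-3 4 (0.11), PRL-3 5 (0.0824) or PRL-3 6 (0.0852). Both also missed the threshold when all 28869 probe sets were tested together, at adjusted p = 0.0562 for ADD2 and 0.0647 for TMOD1 (limma).

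The other adducin of the red cell, alpha adducin (ADD1), read 8.62, 8.34 and 8.13 in control and 7.92, 8.36 and 7.99 in PRL-3 arrays. Its groups overlapped, and the difference of -0.27 had a 95% interval of -0.62 to 0.07. Ankyrin (ANK1), the link between band 3 and spectrin, read 9.22, 9.08 and 8.66 in control and 8.65, 9.01 and 8.58 in PRL-3 arrays. PRL-3 5 lay among the control values there, and the difference was -0.24 (-0.61 to 0.13). EPB42, which stabilises the band 3 and ankyrin complex, differed by -0.17 (-0.38 to 0.05). Its control arrays read 7.20, 7.19 and 7.10 and its PRL-3 arrays 6.82, 7.16 and 7.01.

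Beta spectrin (SPTB), the chain that binds ankyrin, read 7.09, 7.04 and 6.85 in control and 6.87, 6.79 and 6.81 in PRL-3 arrays. One control array, the third, lay within the PRL-3 values, and the difference was -0.17 (-0.36 to 0.01). EPB41, which strengthens the bond of spectrin to actin, read 10.20 to 10.38 in control and 10.17 to 10.26 in PRL-3 arrays, a difference of -0.07 (-0.24 to 0.10). Dematin (DMTN), an actin-bundling protein, read 6.22 to 6.37 and 6.23 to 6.31, a difference of -0.01 (-0.17 to 0.15). Stomatin (STOM), a scaffold protein of the membrane, read 8.83 to 9.12 and 8.79 to 8.87, a difference of -0.14 (-0.35 to 0.06). These intervals leave room for falls of up to 0.62 in ADD1 and 0.61 in ANK1 on the log2 scale but of no more than 0.24 in EPB41 and 0.17 in DMTN.

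Other genes related to the membrane skeleton, 17 measured of 20 listed, held 1 that rose and 0 that fell, against 4.58% and 3.11% of all genes. That was ADD3, gamma adducin, the partner of alpha adducin in cells other than red cells. It read 9.65, 9.60 and 9.73 in control and 10.21, 10.06 and 10.27 in PRL-3 arrays. ADD3 was 1.44-fold higher with PRL-3 (0.52 ± 0.0793, limma adjusted p = 0.0069) and stayed past the threshold without any single array. Of the adducin genes ADD2 thus read lower and ADD3 higher in every PRL-3 array, while the groups of ADD1 overlapped. The call of ADD2, unlike that of ADD3, was lost in most fits with 1 array left out.

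**Figure D2:**
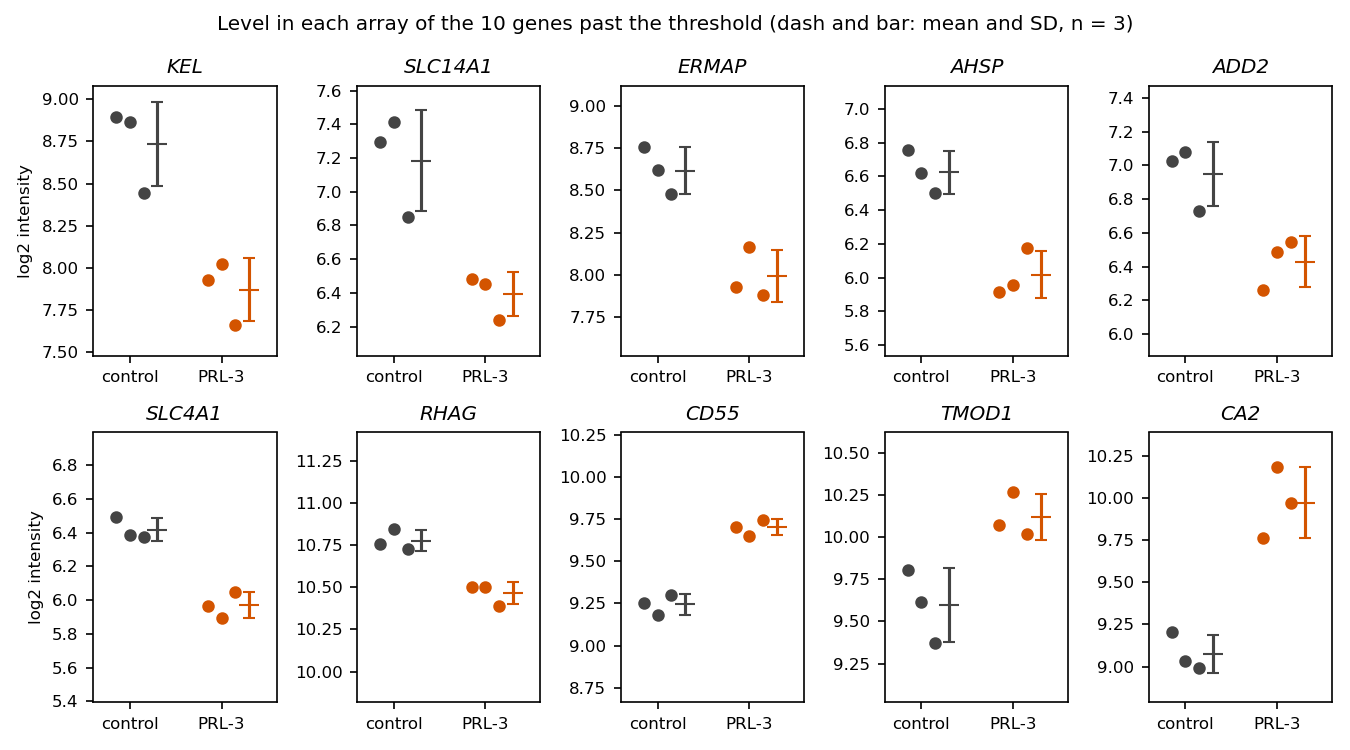
Log2 intensity in each array for the 10 genes past the threshold, in order of their difference; points are arrays 1 to 3 (control) and 4 to 6 (PRL-3) from left to right, with the mean and SD beside them (n = 3). Each panel spans the same range of log2 values, and in each the 3 PRL-3 arrays lie wholly below (KEL to RHAG) or wholly above (CD55, TMOD1, CA2) the 3 control arrays.

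The Kell and Rh complexes held 5 measured genes, all with a difference below 0, against 54.9% of all genes. KEL and RHAG fell, and 3 did not pass. KEL encodes the Kell glycoprotein, a zinc endopeptidase that cleaves big endothelin-3. It read 8.89, 8.86 and 8.45 in control and 7.93, 8.02 and 7.66 in PRL-3 arrays. KEL had the largest fall of the 33 genes, 1.82-fold (-0.86 ± 0.14 log2, SE, adjusted p = 0.00904, limma). Without control 2 its call was lost at adjusted p = 0.0574, with a difference of -0.80.

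XK, the lipid scramblase partner to which Kell is bound by a disulfide bond, read 8.20, 8.02 and 7.99 in control and 7.81, 8.05 and 7.90 in PRL-3 arrays. Its groups overlapped, with a difference of -0.15 (95% interval -0.36 to 0.06). The 95% intervals of KEL, -1.19 to -0.54, and of XK do not meet; the difference between the genes was not tested.

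RHAG, the Rh-associated glycoprotein, is an ammonia channel without which Rh proteins do not reach the membrane. It read 10.76, 10.85 and 10.73 in control and 10.50, 10.50 and 10.39 in PRL-3 arrays. The groups did not overlap, and RHAG was 1.24-fold lower with PRL-3 (-0.31 ± 0.0704, limma adjusted p = 0.0341). It passed without control 3 (adjusted p = 0.0399) but not without control 1 (0.0842), control 2 (0.146), PRL-3 4 (0.105), PRL-3 5 (0.0542) or PRL-3 6 (0.14).

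RHD and RHCE carry the D antigen and the C and E antigens; they are near-identical copies, so each probe set may read part of the other. RHD read 10.83, 11.01 and 10.60 in control and 10.70, 10.52 and 10.54 in PRL-3 arrays, a difference of -0.23 (-0.48 to 0.02). Here control 3 lay among the PRL-3 values. RHCE read 8.11 to 8.16 in control and 8.05 to 8.10 in PRL-3 arrays. All its PRL-3 values lay below the control values, but the difference was only -0.06 (-0.20 to 0.08, adjusted p = 0.685, limma).

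Among 8 adhesion and receptor proteins with blood group antigens ERMAP fell and 7 did not pass. ERMAP, an erythroid membrane protein of the butyrophilin-like family, carries the Scianna antigens. It read 8.75, 8.62 and 8.48 in control and 7.93, 8.17 and 7.88 in PRL-3 arrays. Every PRL-3 array was lower, and ERMAP was 1.54-fold lower with PRL-3 (-0.62 ± 0.103, limma adjusted p = 0.0098). The call was lost without control 2 (adjusted p = 0.057) and without PRL-3 4 (0.0542).

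The other proteins of this kind differed little or varied widely within the groups. ICAM4, an integrin ligand with the LW antigens, read 8.25, 8.03 and 7.69 in control and 7.58, 8.13 and 7.86 in PRL-3 arrays, a difference of -0.13 (-0.52 to 0.26). BSG, basigin, carries the Ok antigen and escorts lactate transporters to the membrane. It read 8.81, 8.41 and 8.11 in control and 8.22, 8.86 and 8.29 in PRL-3 arrays. The spread within each group (SD 0.349 and 0.351) was far larger than the difference between them, 0.01 (-0.47 to 0.50).

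BCAM, the laminin receptor with the Lutheran antigens, read 6.19 to 6.42 in control and 6.31 to 6.62 in PRL-3 arrays, a difference of 0.14 (-0.09 to 0.37). SEMA7A, the semaphorin of the John Milton Hagen antigen, read 7.39 to 7.66 and 7.61 to 7.75, a difference of 0.12 (-0.08 to 0.32). CD47, the signal that keeps macrophages from engulfing a cell, read 10.18 to 10.35 and 10.07 to 10.19, a difference of -0.11 (-0.28 to 0.06). ACKR1, the Duffy chemokine receptor, did not overlap between groups, yet its values of 6.90 to 6.93 and 6.83 to 6.85 differed by no more than -0.07 (-0.21 to 0.07). ART4, the Dombrock protein, read 5.91 to 6.39 in control and 6.06 to 6.27 in PRL-3 arrays, a difference of -0.05 (-0.35 to 0.26).

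The 2 complement regulators CD55 and CD59 are held in the membrane by a glycosylphosphatidylinositol (GPI) anchor. CD55, the decay-accelerating factor with the Cromer antigens, rose. It read 9.25, 9.18 and 9.30 in control and 9.70, 9.65 and 9.75 in PRL-3 arrays. The arrays of each group lay close together, and CD55 was 1.37-fold higher with PRL-3 (0.46 ± 0.0682, adjusted p = 0.00663, limma). It kept its call without any single array (adjusted p up to 0.042). CD59, which blocks the membrane attack complex, read 7.56, 7.69 and 7.70 in control and 7.80, 7.70 and 7.75 in PRL-3 arrays, a difference of 0.10 (-0.07 to 0.26).

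In 22 measured genes of other blood group systems 1 fell and 0 rose, against 3.11% and 4.58% of all genes. It was CR1, the complement receptor with the Knops antigens, which binds the same complement fragments that CD55 acts on. CR1 read 9.47, 9.44 and 9.20 in control and 8.52, 8.55 and 8.46 in PRL-3 arrays. It was 1.81-fold lower with PRL-3 (-0.86 ± 0.0876, limma adjusted p = 0.00138) and stayed past the threshold without any single array. CD55 and CR1, both complement regulators, thus differed in opposite directions.

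Of 22 measured genes for making and remodelling the GPI anchor, 3 rose and 1 fell, against 4.58% and 3.11% of all genes. The list was mixed, with 12 differences above 0 and 10 below. All PRL-3 arrays were higher in 6 and lower in 5, against 12.1% and 12.2% of all genes. An unadjusted p under 0.05 in limma was found in 11, against 20.2% of all genes. PIGA, in the first step of anchor synthesis, read 7.40, 7.29 and 7.11 in control and 7.78, 7.77 and 7.67 in PRL-3 arrays, a rise of 0.47 (limma adjusted p = 0.0164). The others past the threshold were PGAP1 (0.64), which removes an acyl chain from the anchor, PIGP (0.36), of the same first step as PIGA, and PIGV (-0.39), a mannosyltransferase. All 4 lost their calls without control 2 (adjusted p = 0.0586 to 0.152, limma) and without PRL-3 4; PGAP1 and PIGV lost theirs without PRL-3 6 too, PIGV also without control 1, and PIGP in every fit but that without control 1.

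Of the 3 channels and transporters SLC14A1 fell and the others did not pass. SLC14A1 is the urea transporter with the Kidd antigens. It read 7.29, 7.41 and 6.85 in control and 6.48, 6.45 and 6.24 in PRL-3 arrays. All PRL-3 arrays lay below the lowest control array, and SLC14A1 was 1.73-fold lower with PRL-3 (-0.79 ± 0.145, limma adjusted p = 0.0156). Its call was lost without control 2 (adjusted p = 0.0723), PRL-3 4 (0.0526) or PRL-3 6 (0.0694).

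AQP1, the water channel with the Colton antigens, read 6.98, 6.99 and 6.73 in control and 6.90, 6.94 and 6.86 in PRL-3 arrays. The difference was 0.00 with a 95% interval of -0.20 to 0.20. SLC29A1, the nucleoside transporter with the Augustine antigens, read 9.72, 9.37 and 9.08 in control and 9.39, 9.70 and 9.28 in PRL-3 arrays, a difference of 0.06 (-0.33 to 0.45). In 11 measured genes for other transporters and channels of the red cell 1 rose and 0 fell, against 4.58% and 3.11% of all genes. This was SLC4A7, a sodium bicarbonate cotransporter related to band 3. SLC4A7 read 7.47, 7.66 and 7.65 in control and 8.38, 8.16 and 8.37 in PRL-3 arrays (0.71 ± 0.0896, 1.64-fold, adjusted p = 0.00331, limma), and it passed without any single array.

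Carbonic anhydrases interconvert carbon dioxide and bicarbonate, which band 3 carries across the membrane. CA2, the fast isoenzyme, had the largest rise of the 33 genes. It read 9.20, 9.03 and 8.99 in control and 9.76, 10.18 and 9.97 in PRL-3 arrays. CA2 was 1.86-fold higher with PRL-3 (0.90 ± 0.114, adjusted p = 0.00352, limma) and passed without any single array (adjusted p up to 0.0277). CA1, the isoenzyme most abundant in red cells, read 11.42, 11.42 and 11.53 in control and 11.23, 11.12 and 11.32 in PRL-3 arrays. All PRL-3 arrays of CA1 were lower, but the difference of -0.23 (-0.41 to -0.06) did not pass over all genes (adjusted p = 0.126, unadjusted p = 0.0164, limma). The 95% intervals of CA1 and CA2 lie on opposite sides of 0.

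Of 12 other measured carbonic anhydrases 2 rose and 0 fell, against 4.58% and 3.11% of all genes. CA5B, the mitochondrial form, read 7.39, 7.31 and 7.44 in control and 8.40, 8.09 and 8.17 in PRL-3 arrays (0.84 ± 0.0932, adjusted p = 0.00192, limma). CA8, which lacks catalytic activity, read 8.48, 8.69 and 8.78 in control and 9.48, 9.22 and 9.61 in PRL-3 arrays (0.79 ± 0.118, adjusted p = 0.00686, limma). Both passed without any single array. CA3 and CA13, which lie beside CA1 and CA2 in a gene cluster, differed by -0.03 (95% interval -0.19 to 0.12) and 0.05 (-0.16 to 0.26).

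Among 3 late erythroid genes with their own probe set AHSP fell. AHSP, the chaperone of free alpha globin, read 6.75, 6.62 and 6.50 in control and 5.92, 5.96 and 6.18 in PRL-3 arrays. Every PRL-3 array was lower, and AHSP was 1.52-fold lower with PRL-3 (-0.61 ± 0.0978, limma adjusted p = 0.00881). Without control 2 the call was lost by a narrow margin, at adjusted p = 0.0504. HEMGN, hemogen, a nuclear protein of blood progenitors, read 7.50, 7.48 and 7.57 in control and 7.83, 7.37 and 7.65 in PRL-3 arrays, a difference of 0.10 (-0.16 to 0.36). TMCC2, a transmembrane protein, read 6.35 to 6.66 and 6.34 to 6.43, a difference of -0.08 (-0.30 to 0.14).

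TRIM58, a ubiquitin ligase that acts on dynein when the nucleus is expelled, could be read only on probe sets shared with OR2W3. The first of them (7911218) read 8.20, 8.17 and 8.02 in control and 7.80, 7.86 and 7.67 in PRL-3 arrays. The second (7911229) read 8.41, 8.24 and 8.01 in control and 7.81, 7.72 and 7.53 in PRL-3 arrays. The third (7911231) never differed from the second by more than 0.00452 in an array, so the 2 are not separate measurements. In each probe set all PRL-3 arrays lay below all control arrays, with differences of -0.35, -0.53 and -0.53. In limma over all 28869 probe sets, of which 4.85% passed, their adjusted p was 0.0553, 0.0554 and 0.0548, so none passed. Without control 3 all 3 passed, at adjusted p = 0.0432, 0.0285 and 0.0276, and after quantile normalization at 0.0265, 0.0376 and 0.0375 (limma). Which of the 2 genes the signal came from cannot be told apart.

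**Figure D3:**
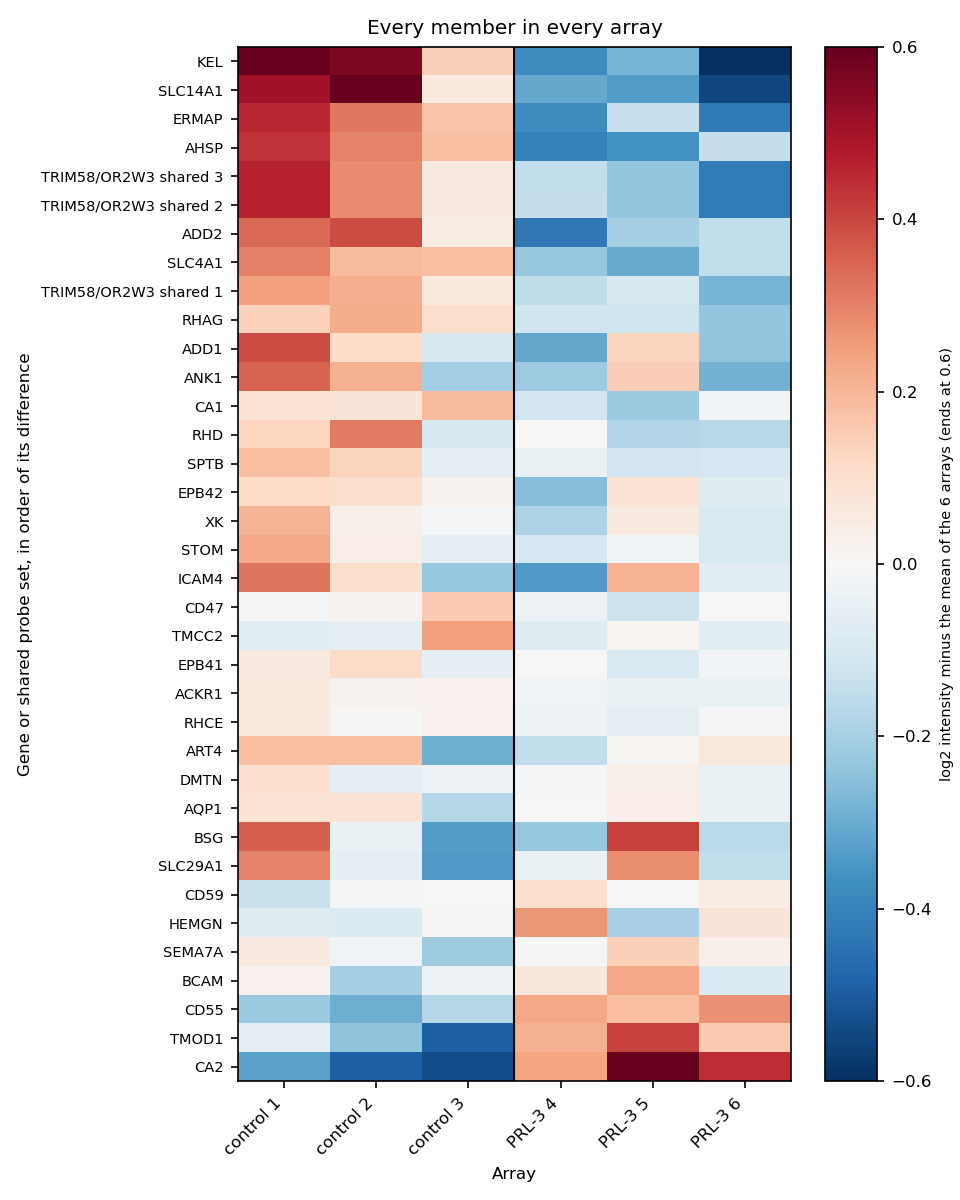
Log2 intensity of each gene or shared probe set in each array, minus its mean over the 6 arrays, in order of the difference from KEL (-0.86) at the top to CA2 (0.90) at the bottom. Rows at both ends change colour at the line between control and PRL-3 arrays, while in BSG and SLC29A1 control 1 and PRL-3 5 are high and control 3 is low.

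Many of these genes shared 1 order of arrays within the groups. Control 1 was the highest and control 3 the lowest control array, and PRL-3 5 the highest PRL-3 array, in 13 of the 33 genes (39.4%), against 18.5% of all genes. This order was picked from the same values, so the shares only describe it, and its cause was not tested. Over all genes control 1 correlated with PRL-3 5 at 0.98627 and with control 3 at 0.98606. These 13 were ANK1, EPB42, ADD1, TMOD1, STOM, KEL, XK, ERMAP, ICAM4, BSG, SEMA7A, SLC29A1 and CA2. GATA1, with 8.42, 8.16 and 7.85 in control and 7.92, 8.45 and 7.82 in PRL-3 arrays, read the same way. Without control 1 and PRL-3 5 together 5 of the 33 genes fell and 3 rose. ADD2 (adjusted p = 0.0859) and RHAG (0.0794) were the 2 that lost their calls in that fit (limma).

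**Figure D4:**
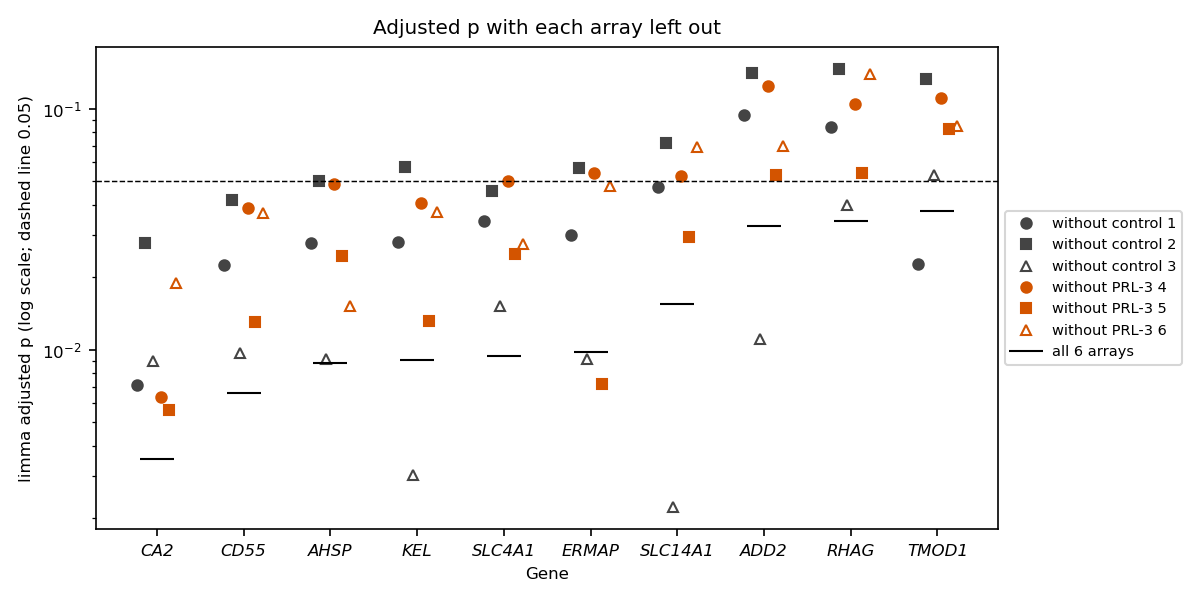
Limma adjusted p (log scale) of the 10 genes past the threshold, with all 6 arrays (dashes) and with each array left out in turn (grey, control; orange, PRL-3). CA2 and CD55 stay below the dashed line at 0.05 whichever array is left out, while ADD2, RHAG and TMOD1 each stay below it in 1 of the 6 fits.

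Leaving out 1 array at a time left 1 to 7 genes lower and 2 or 3 higher among the 33, and the count was smallest without control 2, where 7 of the 10 calls were lost. The 10 genes kept their direction in every one of the 17 alternatives tried in which they were present. A test of each gene on its own 6 values with unequal variances called 0 of the 33 after adjustment, with adjusted p of 0.111 (CD55) to 0.297 (TMOD1) for the 10, though 13 of the 33 (39.4%) had an unadjusted p under 0.05, against 14.5% of all genes. With 3 arrays against 3, an exact permutation test of a single gene cannot give a two-sided p below 0.1.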

How the data were processed

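Total RNA from 6 samples of TF-1 cells was measured on a whole-transcript human array, after labelling of 100 ng of RNA with Nugen Applause and Encore kits, per the labels. The authors deposited a table of linear intensity values, 28869 probe sets by 6 arrays. All were above 0 and the array medians were alike, so they were used as already normalized. How background was corrected, probes summarised and arrays normalized is not given in the sources used here. If arrays were scaled to each other, a shift common to most genes would not be seen. No detection call, batch or date is given, and precision is limited by the number of arrays.

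The log2 of each intensity was taken with no offset. Gene symbols came from GEO's annotation of the platform: 19310 had 1 symbol, 1752 several and 7807 none here; 19279 of the first matched RefSeq (GRCh38.p14) by Entrez identifier and 0 symbols changed. The brightest single-symbol probe set over all 6 arrays stood for a gene (18377 genes). The contrast PRL-3 minus control was fitted by limma 3.58.1 (lmFit, eBayes; R 4.3.3), two-sided, with Benjamini-Hochberg adjustment over all genes and a threshold of 0.05. Probe sets with several symbols were read from a second fit over all probe sets. Errors after a difference are moderated standard errors, and intervals are 95%. The fit was tested on simulated data. Every measured gene of the group is named; of each other gene list up to 4 genes past the threshold are named. The genes and lists were chosen with earlier results of these data known. Levels of different genes were not tested against each other, since probes differ. The level percentiles, the filters on dim genes and the summed marker intensities do rest on levels across genes. Alternatives were other normalizations, an offset of 16, filters on dim genes, other variance models, array weights, other uses of the probe sets, an unequal-variance test, and left-out arrays. Figures were drawn with matplotlib 3.10.9.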

Additional observations from a re-analysis of the deposited data

How the results depend on the processing

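The counts of called genes moved more than the values. Array weights gave 2122 genes higher and 2303 lower, 4425 in all, and among the 33 red cell genes 12 lower, adding ANK1, EPB42, SPTB, ADD1 and RHD; those weights were estimated on the arrays tested. The unequal-variance test gave 7 and 4, 11 in all (2663 at an unadjusted p under 0.05), and 0 higher and 0 lower among the 33, where each gene rests on its own values. Among genes above the median level 3 of the 25 red cell genes then tested were lower; SLC4A1, ADD2, SLC14A1 and AHSP, 4 of the 7 that fell, were not in that fit. Leaving out 1 array gave 566 (without control 2) to 1538 genes in all, 388 to 792 higher, 178 to 747 lower, and 1 (without control 2) to 7 lower and 2 to 3 higher among the 33. Of their 36 probe sets 8 passed over all probe sets, against 4.85% of all probe sets. With 1 array left out 0 (without control 2, 14 at an unadjusted p under 0.05 in limma) to 11 (without control 3) passed. The shares of all probe sets in those fits were not computed. TRIM58 probe sets 7911229 and 7911231, both among the 36, are not separate measurements. Of the 33 genes 8 turned sign under some alternative, and none of these had passed: DMTN (0.0074 after quantile normalization, 0.0036 with 1 median, 0.0187 with array weights, 0.0182 without control 1 and PRL-3 5), BSG (-0.00198 after quantile normalization, -0.11 with array weights, -0.00537 without control 1 and PRL-3 5), AQP1 (-0.0796 with array weights, -7.6e-05 with an offset of 16), SLC29A1 (-0.0101 with array weights), ART4 (0.0131 without control 1 and PRL-3 5), and with 1 array left out ICAM4, HEMGN and TMCC2; the cause was not tested. With 1 array left out DMTN ran from -0.037 to 0.0388, BSG from -0.188 to 0.197, AQP1 from -0.084 to 0.0442, SLC29A1 from -0.0922 to 0.227, ART4 from -0.206 to 0.0309, ICAM4 from -0.28 to 0.0055, HEMGN from -0.0098 to 0.221 and TMCC2 from -0.137 to 0.0191 (-0.165 without control 1 and PRL-3 5 together). No paired analysis was possible because the groups share no replicate number.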
